A study of Arabidopsis thaliana with 51 samples.

Results

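Roots of Arabidopsis thaliana, the thale cress, were compared between plants labelled light and plants labelled dark on 6 of the 51 two-colour arrays of the series. On 2 arrays, here called direct, RNA of light roots was hybridised against RNA of dark roots. On another 4 arrays light root RNA (replicates n1 and p1) and dark root RNA (replicates 1 and 2) were each hybridised against RNA of cultured cells, the reference that the series shares. The question was which transcripts differ between light and dark roots on both routes, which share no array. Whether the routes used the same RNA is not given. Of 1569 genes with a name and values on both routes, 96 passed the test in the same direction on both, 89 higher and 7 lower in light. The labels give the organ, light or dark, and the reference, and the sources used here give no age, ecotype, light dose or growth condition, and do not say whether arrays of a group came from separate plants. P-values therefore measure the spread between arrays of a group, which may be technical and is pooled over all 51 arrays, most of them not of roots.

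Roots grow in darkness in soil, but seedlings in culture are often raised with their roots lit, and roots carry phytochromes and other photoreceptors. Light also reaches a root indirectly, because a lit shoot sends down sugar and hormones, and sugar is known to raise genes of ribosomes and respiration in plants. Lit roots of Arabidopsis can green slightly, and dark-grown seedlings live on stored reserves. Genes of amino acid breakdown are known to rise in plant tissues that run short of sugar.

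A value is the log2 of one RNA over the other, with each array centred on its own median, so that 1 unit is a 2-fold difference. A call needed a 2-fold difference and an adjusted p below 0.05 in a limma fit with 1 mean for each group over all 51 arrays, adjusted by the Benjamini-Hochberg method over all probes tested. Errors are standard errors (SE) of that fit, with 2 arrays in each root group. Their spread is that within the groups of all 51 arrays, not that of the root arrays alone. Light RNA was in channel 1 on both direct arrays, so that dye and light cannot be told apart there. Dark root arrays and light n1 carried the root in channel 2, and light p1 in channel 1, so that only light n1 matches the dark arrays in dye. Light n1 and p1 both carry the number 1 and may be the same RNA. The direction of the ratios, root over cells and light over dark, is not stated in the sources used here and was taken as the likely one: light n1 and p1, of opposite dye, correlated at 0.75 over 25305 probes, and the sign of the whole table rests on photosynthesis genes in light cotyledons.

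The 6 arrays held between 25482 and 26546 values. Across probes the direct arrays correlated at 0.47 with each other, the dark arrays at 0.76, and the mean of the direct arrays at 0.55 with the difference through the reference. The latter correlation was 0.35 with light n1 alone and 0.59 with light p1 alone. The mean of the direct arrays also correlated at 0.35 with light p1 minus light n1, which differ in dye and not in light, and p1 and the direct arrays carry light root RNA in the same channel. Direct array 2 had a wider spread than array 1 (scaled median absolute deviation 1.08 against 0.64 on the log2 scale). These are descriptions over probes, which are not independent. As a check of the tissue, the 9 measured root markers, mostly root peroxidases and the β-glucosidase PYK10, had a median level of 4.43 over cultured cells in light roots and 2.76 in dark roots (log2), and 8 and 7 of the 9 were called above the cells. None of the 3 leaf polarity genes measured (PHV, YAB2 and YAB3) was called above the cells in either. Still, YAB2 and YAB3 read above the cells on all 4 arrays, and PHV below them. Of the photosynthesis list, taken as a sign of green tissue, 1 of 7 genes was called above the cells in light roots and 3 of 8 in dark roots. The shares of all genes called above the cells are not given here.

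Directly, 1202 of 24974 probes were called higher in light (4.81%) and 1076 lower (4.31%). Through the reference, 1223 of 23808 were called higher (5.14%) and 256 lower (1.08%). Of the 22479 probes tested on both routes, 638 were called higher on both (2.84%), 111 lower on both (0.494%) and 4 in opposite directions. The agreeing calls made up 36.3% of the direct calls among them and 51.7% of the reference calls. Most of these probes have no gene name here: 652 of the 749 are counted but not named. The direct estimate differed from the reference estimate at 2 probes, neither with a name.

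The balance of higher and lower calls depended on the centring. Of the agreeing calls, 85.2% were higher in light with each array centred on its median, 73.7% with centring on the named probes and 61.7% with no centring. For the direct calls the shares were 52.8%, 33.7% and 34.4%, and for the reference calls 82.7%, 73.2% and 54.5%. Without centring the median of all probes lay at -0.23 directly and at -0.10 through the reference, against -0.03 and 0.24 with it. Without light p1, which leaves arrays of matched dye on the reference route, 137 probes agreed, 81 higher and 56 lower, and 133 of them were among the 749. All 749 had the same direction on light n1 alone, measured against the mean of the dark arrays. The 749 were chosen by a reference difference that includes light n1 and these dark arrays. Their shared direction is thus nearly fixed by that choice and is no separate support. Without dark array 2 the number agreeing was 205, and without direct array 2 it was 249.

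**Figure D1:**
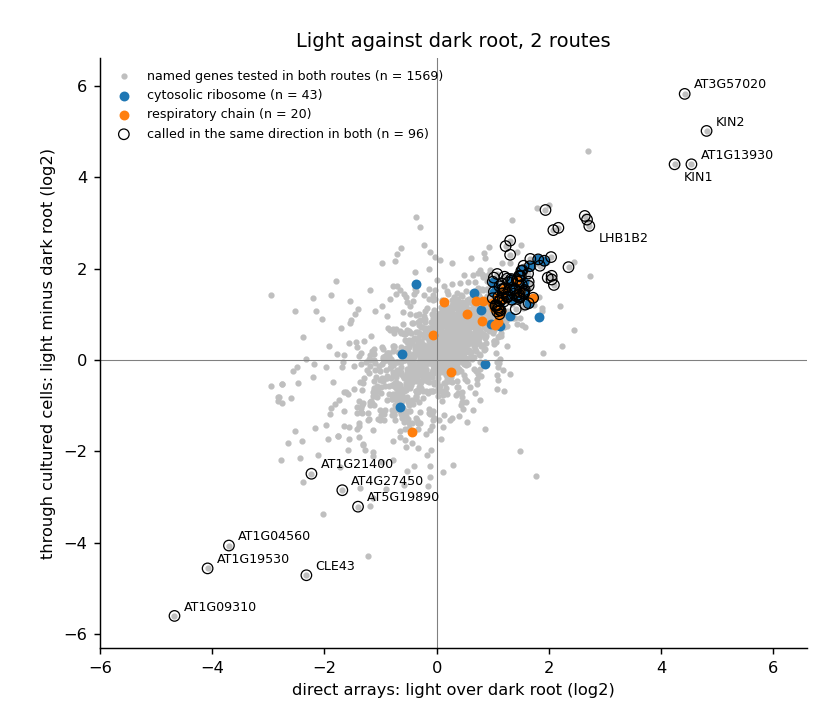
Light against dark root for each of 1569 named genes, with the direct log2 ratio on the x axis and the log2 difference through cultured cells on the y axis. Blue points are cytosolic ribosome genes, orange points respiratory chain genes, and black rings the 96 genes called in the same direction on both routes, of which 89 lie at the upper right and 7 at the lower left.

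Among named genes, 89 of 1569 were called higher in light on both routes (5.67%) and 7 lower (0.446%). A set of 15 of the 96 was called on both routes whichever single root array was left out. Of these 15, 11 were higher in light (AT3G57020, KIN1, KIN2, AT3G59930, AT5G16010, AT5G26260, AT1G41880, AT5G22440, AT1G19140, AT3G23940 and SDH2-1) and 4 were lower (AT1G09310, AT1G19530, AT1G21400 and AT4G27450). They were also called with no centring, with centring on the named probes and with scaling of the arrays. In a fit of the 6 root arrays alone no probe was called on both routes, so none of the 15 was. The plot of these genes by array shows the light and dark arrays apart for each. All 96 agreeing genes had their arrays apart, against 38.0% of all named genes tested. A lack of overlap in an agreeing gene, here and below, thus nearly follows from its calls.

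**Figure D2:**
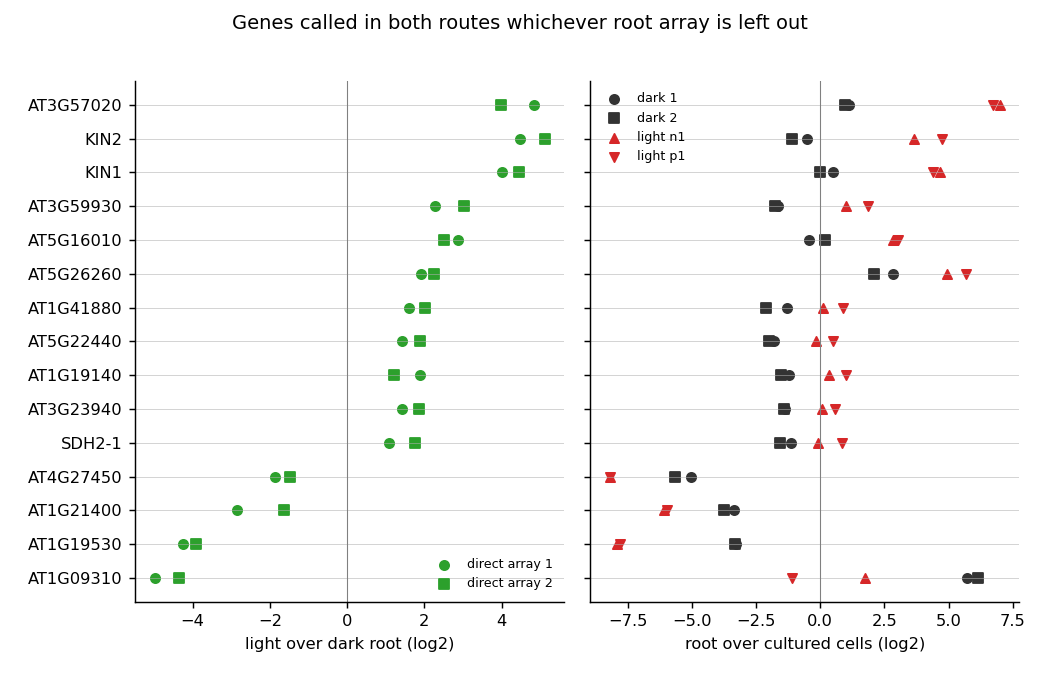
Values of the 15 genes called on both routes with any root array left out. The left panel gives light over dark root on both direct arrays and the right panel root over cultured cells on the light arrays (red) and dark arrays (grey), all as log2 ratios. For every gene both direct arrays lie on the same side of 0 and the light points do not overlap the dark points. This holds for all 96 agreeing genes.

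The highest named genes in light roots included cold and drought proteins. KIN2, a small hydrophilic protein induced by cold, drought and abscisic acid, read 4.49 and 5.12 on the direct arrays, 3.66 (n1) and 4.75 (p1) over cells in light roots, and -0.51 and -1.09 in dark roots. Light and dark arrays did not overlap. It was 28.0-fold higher directly (log2 4.81, SE 0.45, adjusted p = 9.82e-09) and 32.1-fold through the reference (log2 5.01, SE 0.64, adjusted p = 7.48e-06). In bulk RNA, more cells of a type and more RNA per cell cannot be told apart, here or in the results that follow. KIN1, its neighbour and near copy, read 4.02 and 4.45 directly, 4.67 and 4.4 in light roots and 0.50 and 0.01 in dark roots. Its log2 differences were 4.24 (SE 0.50, adjusted p = 4.16e-07) and 4.28 (SE 0.71, adjusted p = 0.000281). Probes of such near copies can share signal, so the pair may not be 2 separate measurements. COR47, a dehydrin of the cold response, read 1.81 and 2.38 directly, 2.30 and 3.10 in light roots and 1.26 and 0.87 in dark roots, again with no overlap. It was called on both routes (log2 2.09 and 1.64), but not through the reference without light p1 (log2 1.24, adjusted p = 0.109).

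The late embryogenesis genes of the same list, known for protecting seeds and drying tissue, had other values. Of the 11 members tested on both routes, KIN1, KIN2 and COR47 were called higher on both, beside 5.67% of all named genes, and none lower. The list's medians were -0.58 directly and -0.25 through the reference, against 0.16 and 0.39 for all named genes tested. Of the 11, 4 had differences above 0 on both routes and 5 below 0 on both. The members described next are among the lower ones, and LEA18, AtLEA4-1 and LEA were picked after their values had been seen. AT3G17520, a late embryogenesis protein, read -0.78 and -1.47 in light roots and 2.36 and 3.96 in dark roots. It was lower in light through the reference (log2 -4.29, SE 1.1, adjusted p = 0.0159) but not directly (-1.90 and -0.57, adjusted p = 0.334), and the reference call ended without light p1 (adjusted p = 0.211) or dark array 2 (0.236). LEA18 was called lower directly (log2 -1.93), though not without either direct array (adjusted p = 0.284 and 0.342), and had a reference difference of -1.73 that was not called. AtLEA4-1 lacked a value on 1 dark array and was called lower directly (log2 -2.22), but not without direct array 2 (adjusted p = 0.866). The gene listed as LEA, AT2G21490, lacked a value on 1 direct array and was called lower through the reference (log2 -3.55), but not without light n1 (adjusted p = 0.107), light p1 (0.142) or dark array 2 (0.243). Some members joined this list after their values had been seen.

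AT3G57020, which encodes a strictosidine synthase-like protein, had the highest mean difference of the 89 genes. It read 4.85 and 3.98 directly, 6.99 and 6.71 in light roots and 1.12 and 0.95 in dark roots, so that the replicates of each group lay close together and the groups far apart. The log2 difference was 4.42 directly (SE 0.35, adjusted p = 6.61e-10) and 5.82 through the reference (SE 0.50, adjusted p = 5.4e-09). AT1G13930, a protein linked to salt tolerance, read 4.11 and 4.96 directly, 3.60 (n1) and 7.01 (p1) in light roots and 0.99 and 1.05 in dark roots. Its light arrays lay far from each other but both above the dark ones. It was called on both routes (log2 4.54 and 4.28), and without light p1 the reference difference was 2.58 and not called (adjusted p = 0.106).

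Other genes among the highest encode proteins of defence, detoxification and transport. The defensin-like AT3G59930 read 2.27 and 3.02 directly, 0.99 and 1.88 in light roots and -1.66 and -1.76 in dark roots, with no overlap (log2 2.64 and 3.15, adjusted p = 5.21e-06 and 0.0002). AT5G16010, of the steroid 4-dehydrogenase family, read 2.86 and 2.51 directly, 2.85 and 3.03 in light roots and -0.44 and 0.17 in dark roots. AT5G26260, a TRAF-like protein, read 1.92 and 2.24 directly, 4.92 and 5.68 in light roots and 2.84 and 2.08 in dark roots. In each the dark arrays lay below the light arrays, and the calls held with any root array left out.

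Other genes of this group lost a call when 1 array was left out. GSTU26, a glutathione transferase of the tau class, read 1.97 and 2.37 directly, 5.38 and 4.68 in light roots and 2.12 and 2.17 in dark roots, and its calls ended without direct array 2 (adjusted p = 0.173) or dark array 2 (0.0704). AT1G48750, a lipid transfer protein-like gene (log2 1.94 and 3.28), was not called without direct array 2 (adjusted p = 0.0784). For the efflux carrier gene AT1G61890 the log2 differences were 2.35 and 2.03, and the reference call ended without dark array 2 (adjusted p = 0.15) or light p1 (0.251). STZ, a zinc-finger repressor that responds to salt and cold, had differences of 2.04 and 2.25. Its direct call ended without direct array 2 (adjusted p = 0.169), and its reference call without light p1 (0.434), dark array 1 (0.0581) or dark array 2 (0.218). These 4 genes had no overlap between light and dark arrays.

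Of 43 cytosolic ribosome genes tested on both routes, 24 were called higher in light on both and none lower on either, against 5.67% of all named genes called higher on both. Of the same genes, 32 were called higher directly and 25 through the reference, beside 157 and 133 of the 1569 named genes. Their median difference was 1.3 directly and 1.44 through the reference, against 0.16 and 0.39 over the 1569 named genes. The list was drawn up after these values had been seen, so its counts describe it and test nothing. The median of the ribosome genes was 1.06 and 1.65 on the direct arrays, -0.98 on light n1, -0.15 on light p1, and -1.83 and -2.14 on the dark arrays. They were thus below the level of cultured cells in dark roots and nearer to it in light roots. On light n1 alone 42 of the 43 lay above the mean of the dark arrays, and for 38 all arrays of light lay apart from those of dark in the same direction as on the direct arrays. All arrays were apart in this way, in either direction, for 38.0% of all named genes tested.

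How many ribosome genes were called depended on single arrays, while the direction of their median did not. With light p1, dark array 2 or direct array 2 left out, most of the calls on both routes were lost. Without light p1 the reference median of the list was 0.93, beside 0.17 for all named genes tested. It was 1.17 without dark array 2, and without direct array 2 the direct median was 1.06. With no centring 4 of the 43 were called higher on both, beside 192 of all 22479 probes tested on both routes. The list's medians were then 1.1 and 1.09. AT1G41880, which encodes ribosomal protein L35a, read 1.61 and 2.01 directly, 0.12 and 0.87 in light roots and -1.31 and -2.09 in dark roots (log2 1.81, SE 0.20, adjusted p = 1.50e-07, and 2.20, SE 0.28, adjusted p = 7.48e-06). AT5G22440, which encodes L10a, read 1.43 and 1.89 directly, -0.15 and 0.49 in light roots and -1.78 and -1.99 in dark roots. Neither overlapped between light and dark, and both kept their calls with any root array left out. AT3G28900, for L34, had the largest mean of the list (log2 1.92 and 2.17), but lost calls without direct array 2 (adjusted p = 0.187), light p1 (0.512) or dark array 2 (0.247). Ribosomal proteins are encoded by small families of similar copies, and probes of one copy may read others.

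Of 20 genes of the mitochondrial respiratory chain, which passes electrons from substrates to oxygen and makes ATP, 7 were called higher on both routes and none lower on either, beside 5.67% of all named genes called higher on both. Their medians were 1.03 directly and 1.19 through the reference, beside 0.16 and 0.39 for all named genes tested. This list too was drawn up with the values known and was not tested as a group. SDH2-1, the iron-sulphur subunit of succinate dehydrogenase, read 1.08 and 1.77 directly, -0.09 and 0.84 in light roots and -1.14 and -1.58 in dark roots, with no overlap. It was called with any root array left out (log2 1.43, SE 0.18, adjusted p = 2.42e-06, and 1.74, SE 0.26, adjusted p = 7.45e-05). A second probe of SDH2-1 gave 1.00 and 1.27 and was not called on both. SDH1-1, the flavoprotein subunit of the same enzyme, differed by 1.18 and 1.34, and lost its calls without direct array 2 (adjusted p = 0.254), dark array 2 (0.218) or light p1 (0.403). AT4G26210, a subunit of ATP synthase, differed by 1.72 and 1.36 and was not called through the reference without light p1 (adjusted p = 0.119). The cytochrome c gene CYTC-2 differed by 1.48 and 1.49, and lost calls without direct array 2 (adjusted p = 0.154), dark array 2 (0.348) or light p1 (0.548). Without light p1 most of the list's calls on both routes were lost, and its reference median was 0.79, beside 0.17 for all named genes tested.

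Other genes of protein synthesis and mitochondrial metabolism had positive medians with fewer calls. Of 9 translation factor genes, 2 were called higher on both routes, beside 5.67% of all named genes. These were AT5G12110, a subunit of elongation factor 1B (log2 1.98 and 1.80), and AT1G73230, a subunit of the nascent polypeptide-associated complex (1.45 and 1.71). Neither was called through the reference without light p1 (adjusted p = 0.414 and 0.191) or dark array 2 (0.218 and 0.104), and AT1G73230 was not called without direct array 2 (0.0519). None of 10 genes listed as matrix dehydrogenases, not all of which encode dehydrogenases, was called on both routes. On the reference route 1 of them was called higher, beside 133 of the 1569 named genes. The list's medians were 0.66 and 0.92. AT3G23940, a dihydroxyacid dehydratase of branched-chain amino acid synthesis, read 1.64 and 1.71 as log2 differences (adjusted p = 2.57e-06 and 0.000544) and kept its calls with any root array left out. The same held for AT1G19140, a COQ9-like protein of ubiquinone synthesis (1.55 and 2.06). Of the 89 genes higher on both routes, 33 belong to the ribosome, translation factor or respiratory chain lists and 56 to none of them. These lists hold 43, 9 and 20 of the 1569 genes tested. Loci were added to each after values had been seen, so the split describes the lists and tests nothing.

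**Figure D3:**
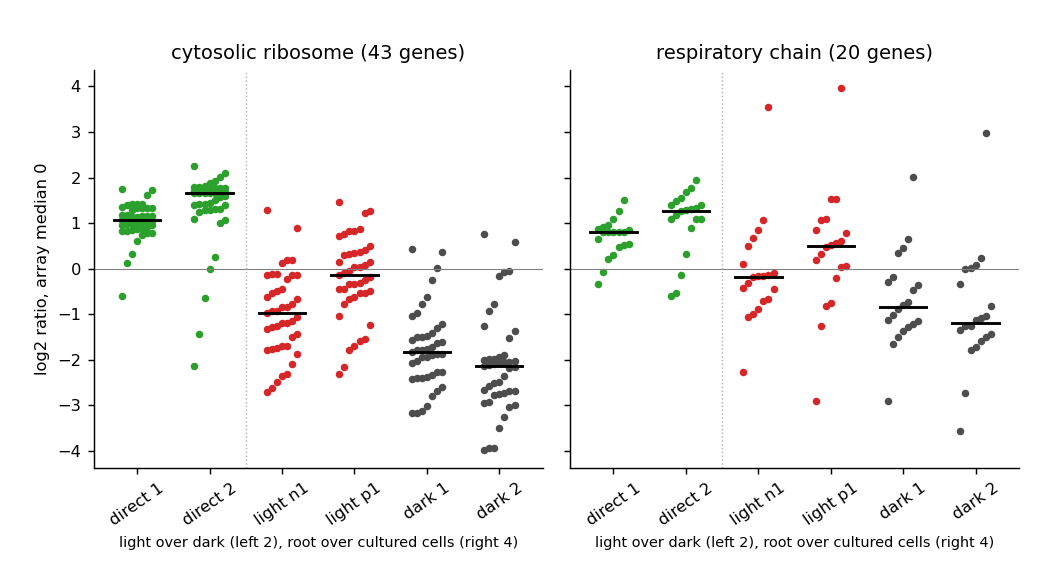
Log2 ratios of 43 cytosolic ribosome genes (left) and 20 respiratory chain genes (right) on each root array, with the array median set to 0. Green points are light over dark root, red points light root over cultured cells and grey points dark root over cultured cells, and black bars are medians. The ribosome medians are 1.06 and 1.65 on the direct arrays, -0.98 and -0.15 on the light arrays and -1.83 and -2.14 on the dark arrays.

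Far fewer named genes were lower in light on both routes, and the 7 of them included hypoxia-response genes. AT1G09310, which encodes a protein of the DUF538 family, had the largest fall. It read -4.98 and -4.36 directly, 1.74 (n1) and -1.08 (p1) over cells in light roots and 5.71 and 6.14 in dark roots. The groups lay far apart although the light arrays did too. It was 25.4-fold lower directly (log2 -4.67, SE 0.42, adjusted p = 2.16e-09) and 48.4-fold through the reference (log2 -5.60, SE 0.59, adjusted p = 1.34e-07).

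AT1G19530, a gene of unknown function in the core response to low oxygen, read -4.26 and -3.91 directly, -7.91 and -7.79 in light roots and -3.29 and -3.30 in dark roots. Replicates nearly coincided, and light lay 23.5-fold below dark through the reference (log2 -4.56, SE 0.37, adjusted p = 1.80e-09) and 17-fold directly (log2 -4.08, SE 0.26, adjusted p = 8.95e-12). AT4G27450, also induced by low oxygen, read -1.86 and -1.49 directly, -8.17 and -8.20 in light roots and -5.02 and -5.66 in dark roots (log2 -1.68 and -2.85, adjusted p = 1.94e-04 and 4.94e-05). Both genes were below the cultured cells on all 4 arrays, most so in light, and kept their calls with any root array left out. They were 2 of 4 hypoxia list members tested, beside 0.446% of all named genes called lower on both routes. Of the other 2 members of the hypoxia list, AT1G33055 read -1.04 and -0.76 directly, -6.10 and -5.20 in light roots and -2.45 and -3.20 in dark roots. It was called lower through the reference (log2 -2.83, adjusted p = 0.015) and not directly, and that call ended with any of the 4 reference arrays left out (adjusted p from 0.0598 to 0.101). AT3G10020, with differences of 0.18 and -0.06, was called on neither. AT1G33055 and AT3G10020 joined the list after their values had been seen.

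AT1G21400, the E1 alpha subunit of the branched-chain keto acid dehydrogenase, which burns amino acids, read -2.84 and -1.62 directly, -6.10 and -5.98 in light roots and -3.34 and -3.75 in dark roots. The groups did not overlap (log2 -2.23, SE 0.31, adjusted p = 5.47e-06, and -2.49, SE 0.43, adjusted p = 4.59e-04). It was the 1 gene called among 7 of branched-chain amino acid and lysine breakdown, beside 0.446% of all named genes called lower on both routes. The medians of the 7 were -0.25 and -0.10. The methylcrotonyl-CoA carboxylase gene MCCA had values of -0.92 and -0.44 directly and -5.00, -4.75, -3.89 and -4.58 over cells in light n1, light p1, dark 1 and dark 2, and was not called.

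The other 3 lower genes rested on single arrays. AT1G04560, an AWPM-19-like membrane protein, read -2.89 and -4.52 directly, 0.97 and -2.08 in light roots and 3.98 and 3.04 in dark roots. Its direct call ended without direct array 2 (adjusted p = 0.378), and its reference call without light p1 (0.623), dark array 1 (0.185) or dark array 2 (0.161). CLE43, which encodes a small signalling peptide, read -3.70 and -0.93 directly, -0.77 and -4.47 in light roots and 2.31 and 1.86 in dark roots, and its calls ended without direct array 1 (adjusted p = 0.617) or light p1 (0.314). The peroxidase gene AT5G19890 read -1.82 and -0.98 directly, 0.94 and 2.0 in light roots and 4.33 and 5.04 in dark roots. Its direct difference (log2 -1.40, adjusted p = 0.0487) was no longer called without direct array 1 (adjusted p = 0.399), direct array 2 (0.233) or either dark array (0.0513), which enter the shared estimate of spread. The reference call ended without dark array 2 (0.075), and a second probe, at -1.64 and -1.50, was not called on both. No light array overlapped a dark array in these 3 genes.

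Of 23 peroxidase genes tested on both routes, whose products build and loosen root cell walls, AT3G49960 was called higher and AT5G19890 lower on both, beside 5.67% and 0.446% of all named genes. The medians were 0.27 and 0.58, and the list was not tested as a group. A second probe of AT5G39580, a peroxidase gene whose main probe was not called (log2 -1.13 and -2.01), was called lower on both routes. AT3G49960, strong in roots, read 1.36 and 1.66 directly, 4.79 and 4.62 in light roots and 3.26 and 2.26 in dark roots, with no overlap. Its second probe was not called on both, and its own call ended with either direct array, either light array or dark array 2 left out (adjusted p from 0.0623 to 0.411). PYK10, the β-glucosidase stored in ER bodies of roots, read 1.26 and 2.08 directly, 4.08 and 4.78 in light roots and 2.32 and 2.11 in dark roots. It was called on both routes (log2 1.67 and 2.21) but not without direct array 2 (adjusted p = 0.521), light p1 (0.356), dark array 1 (0.0753) or dark array 2 (0.211). Among 9 root markers these 2 were the ones called on both routes, beside 5.67% of all named genes called higher. The list's medians were 0.27 and 1.29. With no centring none of the 9 was called on both.

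Of 7 photosynthesis genes tested on both root routes, 1 was called higher on both and the other 6 on neither. Of all named genes, 5.67% were called higher on both. The 1 called was LHB1B2, a light-harvesting protein of photosystem II. It read 3.10 and 2.34 directly, 1.94 (n1) and 4.03 (p1) in light roots and -0.73 and 0.84 in dark roots, with no overlap. The log2 differences were 2.72 (SE 0.49, adjusted p = 2.46e-04) and 2.93 (SE 0.69, adjusted p = 0.00769), and the reference call ended without light p1 (adjusted p = 0.364) or dark array 1 (0.121). LHCB4.1, another antenna protein, read -0.01 and 0.26 directly, -3.23 and -2.46 in light roots and -1.80 and -2.34 in dark roots, and its second probe differed from the first in sign through the reference (0.43 against -0.77). For PSAN, of photosystem I, the differences were 0.33 and 0.17. The list's median was 0.33 directly and -0.53 through the reference, against 2.34 on the direct cotyledon arrays. There 4 of the 7 were called higher, beside 166 of 1551 named genes. The sign of the ratios was taken from photosynthesis genes in light cotyledons, so their direction there was fixed in advance and is no result. The root and cotyledon responses differed by test for 3 of the 7, beside 8.94% of all named genes. None of 5 chlorophyll synthesis genes was called in roots. PORB, which reduces protochlorophyllide in light, had direct values of -0.36 and -3.86 and was not called (log2 -2.11, adjusted p = 0.0664, and -2.09, adjusted p = 0.282).

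Of the light signalling and clock genes measured, neither the transcription factor gene SPT (differences of -0.92 and -1.09) nor the clock gene GI (0.00 and -0.48) was called. In the phenylpropanoid list CCOAMT, a caffeoyl-CoA methyltransferase-like gene, was called lower directly (-2.60 and -2.46 on the arrays, adjusted p = 0.0209) but not through the reference (log2 -1.55, adjusted p = 0.441). Its direct call ended without either direct array (adjusted p = 0.137 and 0.319). CCR2, a cinnamoyl-CoA reductase gene of lignin synthesis, differed by 1.36 and 1.45 and was called on neither route. EXLA1, an expansin-like protein of the cell wall, was the 1 gene called on both routes among 5 of the cell wall list (log2 1.34 and 1.32), and lost calls without direct array 2 (adjusted p = 0.148), dark array 2 (0.348) or light p1 (0.533). Beside this 1 of 5, 5.67% of all named genes were called higher on both routes. None of 9 tubulin and actin genes was called, with medians of 0.66 and 0.90, and none of 5 cell cycle and histone genes, with medians of 0.50 and 1.31. Among 5 genes of nitrogen use and the dark response none was called, with medians of -0.25 and -0.42. In the list of glycosyl and glutathione transferases, enzymes of detoxification, GSTU26 was the 1 of 10 called on both routes, again beside 5.67%. The medians were 0.36 and 0.30. Of the heat shock list, HSP93-III, a plastid chaperone, was called lower directly (log2 -1.74, adjusted p = 0.022), but not without either direct array (0.074 and 0.509) nor through the reference (log2 -0.88).

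**Figure D4:**
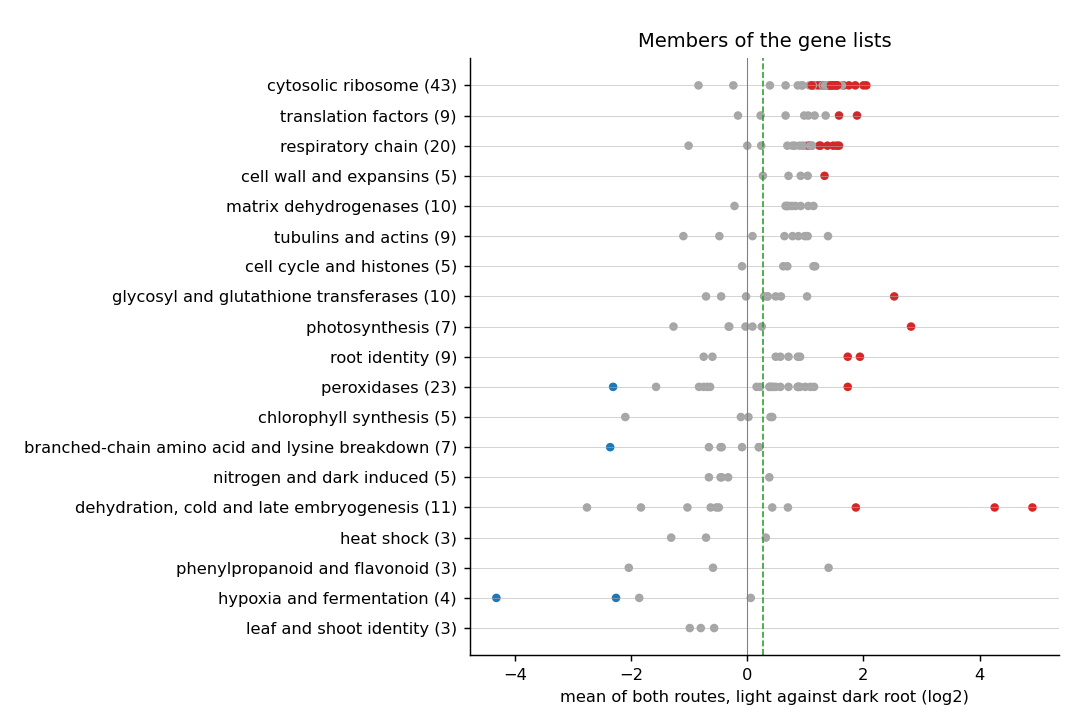
Members of each gene list with 3 or more genes tested on both routes (number in brackets), by the mean of the direct and reference log2 differences of light against dark root. Red points were called higher and blue points lower on both routes, grey points were not, and the dashed green line is the middle of the medians of all named genes (0.16 direct, 0.39 reference). The ribosome and respiratory chain lists lie to the right of the line except for a few members.

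Most probes called on one route only had the same sign on the other. Of 1313 direct calls that were not called through the reference, 1072 had the same sign there, and of 696 reference calls not called directly, 655 had the same sign on the direct arrays. Across all probes tested on both routes 71.5% had the same sign. The highest direct-only genes were AT4G23670, a major latex protein-like gene (log2 2.74 directly, 1.83 through the reference), AT1G78070, a WD40-repeat gene (2.45 and 2.14), AT5G65300 (2.19 and 1.19) and AT5G62350, an inhibitor of pectin methylesterase or invertase (1.97 and 2.15). Without direct array 2 the call ended for AT4G23670 (adjusted p = 0.13), AT1G78070 (0.254) and AT5G62350 (0.478), and for the last also without direct array 1 (0.0965). The lowest were AT2G44090, whose direct arrays read -0.10 and -5.80, AT3G03210 (-4.47 and -1.18), AT1G31300 (-1.77 and -3.86) and AT2G33840, a tyrosyl-tRNA synthetase gene (-2.14 and -3.42). In the first 2 of these a single array carried most of the difference, and each of the 4 lost its call without its lower array (adjusted p from 0.433 to 1.0). Through the reference alone AT5G41810 (3.32), AT4G16155, a dihydrolipoyl dehydrogenase gene (1.97), AT2G22900 (1.96) and VTC4, of ascorbate synthesis (1.85), were highest. AT5G05450, an RNA helicase gene (-3.36), and AER, an alkenal reductase gene (-1.37), stood with AT3G17520 and AT1G33055 among the lowest. Each of these 6 lost its reference call without light p1 (adjusted p from 0.0508 to 0.604), and all but AT2G22900 also without 1 or more of the other reference arrays.

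Set against the direct cotyledon arrays, which also carry the light RNA in channel 1, 1481 of 24204 probes responded differently in roots (6.12%). A dye effect of equal size would cancel in this difference. Among all 1645 named genes tested, 147 differed (8.94%). Of 95 agreeing genes tested, 23 differed, but these were chosen for their direct root values, which enter the difference too, and nothing is read from their count. GSTU26 rose in light roots and fell in light cotyledons, where it read -1.99 and -2.01 (root minus cotyledon log2 4.17, SE 0.67, adjusted p = 7.16e-05). AT5G26260 also had opposite calls, with -1.08 and -2.21 in cotyledons (difference 3.72, SE 0.47, adjusted p = 2.41e-06), and so did AT1G68620, a carboxylesterase-like gene (1.31 in roots, -1.37 in cotyledons, difference 2.67, adjusted p = 0.00535). The root calls of AT1G68620 ended without either direct array (adjusted p = 0.0706 and 0.773), dark array 2 (0.274) or light p1 (0.282), and its difference without direct root array 2 (0.118) or direct cotyledon array 2 (0.0734). KIN2 read 2.01 and 0.64 in cotyledons and KIN1 1.71 and 0.47, and both responded more in roots (differences 3.48 and 3.15, adjusted p = 4.59e-04 and 0.00434). For KIN1 that difference was not called without direct root array 2 (adjusted p = 0.0711) or direct cotyledon array 2 (0.12).

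AT1G09310, far lower in light roots, read 0.87 and 0.48 in cotyledons and was not called there (difference -5.34, SE 0.59, adjusted p = 1.57e-07). AT4G27450 fell more in cotyledons, at -5.44 and -5.42, than in roots (difference 3.75, adjusted p = 1.63e-07), while for AT1G19530 the fall of -4.82 in cotyledons did not differ from that in roots by the test (difference 0.74, SE 0.37, adjusted p = 0.294). The glucosinolate transporter gene GTR1 and AT5G05600, a 2-oxoglutarate-dependent oxygenase gene, rose more in cotyledons (2.80 and 4.17) than in roots (1.23 and 1.31), with differences of -1.57 (adjusted p = 0.0386) and -2.86 (2.10e-04). GTR1 lost its direct call without direct array 1 (adjusted p = 0.545), its reference call without light p1 (0.1), and its difference without direct root array 2 (0.692) or either cotyledon array (0.097 and 0.251). For AT5G05600 the root calls ended without direct array 2 (adjusted p = 0.536), dark array 2 (0.203) or light p1 (0.0768), and the difference was called throughout. Of the 43 ribosome genes 2 differed, with a median of 0.63 in cotyledons and 1.3 in roots, and of the 20 respiratory chain genes 2, SDH2-1 and AT4G26210, differed, both higher in roots, and neither was called without direct root array 2 (adjusted p = 0.132 and 0.187), the latter also not without cotyledon array 1 (0.0925). The counts of 2 of 43 and 2 of 20 stand beside 8.94% of all named genes that differed, and nothing is read from them. For AT3G57020 and LHB1B2 the differences were 0.73 (SE 0.50, adjusted p = 0.491) and 0.12 (SE 0.69, adjusted p = 0.966), which misses the threshold and does not show equal responses.

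**Figure D5:**
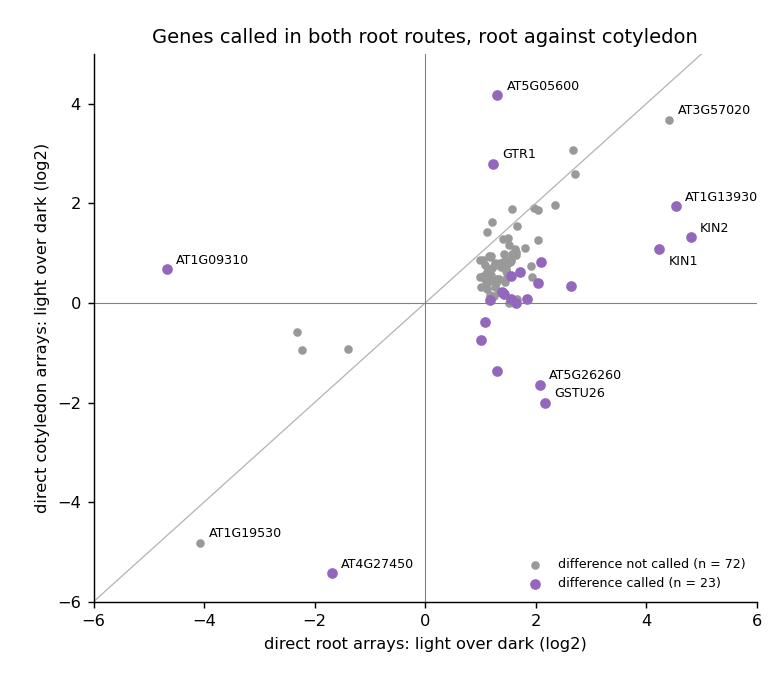
Log2 of light over dark on the direct root arrays (x axis) and the direct cotyledon arrays (y axis) for the 95 genes that agree on both root routes and have cotyledon values. Purple points are the 23 genes whose root and cotyledon responses differed, grey points the other 72, and the diagonal marks equal responses. GSTU26 and AT5G26260 lie below 0 in cotyledons and above 0 in roots, and KIN1 and KIN2 lie far to the right of the diagonal.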

How the data were processed

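The authors deposited a table of log2 ratios of both RNAs on each array, down to a log2 of -9.97 (a ratio of 0.001). The sources used here do not give how images were taken, corrected or normalized. The array medians differed from 0, so the deposited log2 values were centred on each array's median. Signal over background was not analysed here, and the number of arrays limits the precision. Members, gene lists and the naming rule were chosen with earlier results of these data known.

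Names came from the platform's annotation table, which covers 2676 of the 27648 probes on the array. It lists 2032 probes with 1 gene symbol and 644 with several, and 2029 of the former matched RefSeq by Entrez identifier. Left unnamed were 188 probes with a genomic clone accession and 24 that correlated under 0.3 with other probes of their gene. Repeat spots of 3 control accessions (17 each) were averaged, which gave 27600 features and 1748 named genes. A gene with several probes was read from the probe with most values on the root arrays. Roles are general knowledge of Arabidopsis loci.

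limma 3.58.1 in R 4.3.3 fitted 1 mean per group over all 51 arrays, with probes tested at 2 or more values in every group compared, and two-sided p-values. The fit was tested on simulated data. Lists with loci added after values were seen are cytosolic ribosome, translation factors, respiratory chain, matrix dehydrogenases, branched-chain amino acid breakdown, peroxidases, and part of the cold and hypoxia lists. Named genes are, of those agreeing, up to 12 highest and 12 lowest, up to 3 of each list, up to 4 highest and 4 lowest called on 1 route, and up to 5 on each side of the cotyledon difference; COR47, AT3G10020, AT3G23940, AT1G19140, SDH1-1, AT1G68620, PSAN, LEA18, AtLEA4-1 and the gene LEA were added after their values were seen. Alternatives were other centring, scaling, probe filters, the root arrays alone, averaging the light arrays, and leaving out each array.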

Additional observations from a re-analysis of the deposited data

Results flagged for a closer look

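The difference between the light response of roots and that of cotyledons, both from direct arrays, passed the test for 147 of 1645 named genes, of which the rule picks up to 5 on each side among those that agreed on both root routes, 8 in all. These were chosen for their direct root values, which enter the difference too. The root minus cotyledon log2 difference was 4.17 for GSTU26, 3.75 for AT4G27450, 3.72 for AT5G26260, 3.48 for KIN2 and 3.15 for KIN1. It was -5.34 for AT1G09310, -2.86 for AT5G05600 and -1.57 for GTR1. Each rests on 2 root and 2 cotyledon arrays. Groups of 2 arrays are too small for a search for single arrays that stand apart.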

How the results depend on the processing

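The direction of every named call was the same under each alternative run, and no called value changed sign. The number of direct calls (2278) was 8216 with scaling of the arrays and 54 in a fit of the 6 root arrays alone, and ranged from 475 to 2772 with 1 array left out. Reference calls (1479) numbered 574 with no centring, 510 with the light arrays averaged and 0 with the root arrays alone (limma, 3127 at an unadjusted p under 0.05), and from 228 to 2233 with 1 array left out. Agreeing calls (749) numbered 311, 349 and 0 under those settings, 1486 with scaling, and from 137 to 839 with 1 array left out. The 2 probes that differed between routes became 20 without light p1. Root and cotyledon responses differed at 1481 probes, at 6851 with scaling, at 341 with root and direct cotyledon arrays alone, and at 680 to 1603 with 1 array left out. The fits of few arrays have few residual degrees of freedom. Whether this or anything else lowered their counts was not tested. Where a group keeps 1 array, it is assumed to vary like the other groups. No paired analysis was possible because both light root arrays carry the number 1 and the direct arrays are tested against 0.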
